A study of Drosophila melanogaster with 23 samples.

Results

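Unplaced contigs are pieces of the reference genome that come mostly from repeat-rich heterochromatin and have not been joined to a chromosome arm. All 10-kb bins of the Drosophila melanogaster dm6 build that lie on such contigs were taken by the name of the contig, leaving out contigs assigned to Y, and were kept where they had contacts in all 7 Hi-C maps. This gave 1251 bins on 1138 contigs, of 1842 contig bins and 15850 bins in the series, and 525 contigs with a median length of 1251 bases had no bin left. Their contacts were summed over contigs by partner: the pericentromeres (2L from 22 Mb, 3L from 23 Mb, 3R to 4.2 Mb and X from 22.5 Mb, 1144 bins), the 9494 arm bins of the same chromosomes, the 131 bins of chromosome 4 and the 235 bins of chromosome Y.

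Hi-C counts how often 2 DNA segments are ligated together after crosslinking and DpnII digestion, which cuts at GATC. The embryos were hand-sorted at stage 5, at zygotic genome activation. HP1-KD embryos (5 libraries) came from mothers of line #33400, whose short hairpin RNA against HP1 is driven in the germline by the Gal4 driver #7063 and leaves part of the protein. HP1-rescue embryos (3 libraries) carried in addition pUASP::Flag-HA-HP1, which the hairpin does not target, and H3K9M embryos (2 libraries) carried pUASP::H3.3K9M, a histone H3 variant whose lysine 9 is methionine. Control embryos (7 libraries) came from line #36303. S2 cells, a cultured embryonic line, received HP1 dsRNA 1, HP1 dsRNA 2 or a GST control dsRNA (2 libraries each). Libraries were deposited as 1 pooled map per group, so there is no replicate error, no test was made, and intervals below are 95% Wilson intervals that cover counting error only.

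HP1 is a chromatin protein that binds histone H3 methylated at lysine 9, the mark of constitutive heterochromatin. In Drosophila this heterochromatin surrounds the centromeres, fills chromosome Y and much of chromosome 4, and is built largely of satellite repeats, which are short units repeated in tandem. In early embryos the centromeres gather at 1 side of the nucleus, so that pericentromeric regions of different chromosomes lie near each other. The 359-bp repeats form a large block in the heterochromatin of X, with related repeats on 3L, and the dodeca satellite lies near the centromere of chromosome 3.

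The contigs held 4143080 bases, with a median length of 1899.5 bases and only 77 of 10 kb or more. Repeats were marked over a median of 92.7% of a contig, against 19.98% of the arms. By the chromosome that RefSeq gives for them, 436 contigs belonged to X, 124 to the chromosome 3 centromere, 18 to the chromosome 2 centromere, 40 to X or Y and 1 to the ribosomal DNA, and 519 had no chromosome. Contigs were also grouped by the distance at which their words of sequence recurred. In 281 contigs (243 labelled X, 38 without a chromosome), here called 359-bp contigs, words recurred at distances near 359 bases. Of the recurrences near that distance alone, 31.6% lay at 359 and 22.3% at 358 bases. In 73 contigs, all labelled 3 centromere, the main distance was 11 bases, with 12 bases next. In 15 contigs it was 5 bases, and 769 contigs had no such period.

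A pair of stretches of the 359-bp contig chrX_DS484411v1_random are shown because they display the tandem copies of the largest family. They start at positions 1137 and 1492 of the contig (chrX_DS484411v1_random:1137-1286 and chrX_DS484411v1_random:1492-1641, dm6, plus strand, RefSeq), and 149 of 150 bases are the same. These copies lie 355 bases apart, within the spread of distances in the family. Capitals mark GATC in the first copy and the differing base in the next copy.
First copy: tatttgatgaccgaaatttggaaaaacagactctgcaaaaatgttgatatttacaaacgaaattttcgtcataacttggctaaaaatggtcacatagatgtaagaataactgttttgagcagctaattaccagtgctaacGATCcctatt
Next copy: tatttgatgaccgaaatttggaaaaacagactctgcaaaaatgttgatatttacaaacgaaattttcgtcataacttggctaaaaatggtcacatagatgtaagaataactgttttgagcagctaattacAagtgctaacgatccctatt
A stretch of the chromosome 3 centromere contig chrUn_DS483641v1 (chrUn_DS483641v1:1483-1602, dm6, plus strand, RefSeq) is shown because its repeat recurs in the results. Capitals mark the 9 copies of the 11-base motif AGTACGGGACC, of which this contig of 14503 bases holds 471 on that strand.
Chromosome 3 contig: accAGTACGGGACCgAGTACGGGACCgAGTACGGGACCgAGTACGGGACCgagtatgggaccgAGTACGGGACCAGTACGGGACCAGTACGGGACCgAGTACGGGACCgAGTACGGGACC

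The motif, searched on both strands with overlaps allowed, occurred in 73 of 73 contigs of the 11- to 12-bp group, in 0 of 281 359-bp contigs and in 26 of 769 contigs without a period (3.38%). It was also found in 9 of 9494 arm bins (0.0948%). The cutting site differed as well, with a median of 4.73 GATC per kb in 359-bp contigs and 0.815 per kb in 11- to 12-bp contigs. In 51 contigs there was none at all, 30 of them 11- to 12-bp contigs, yet they had contacts in every map. How reads from near-identical copies were placed among contigs was not tested.

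Depth was uneven. Whole contacts recovered from the deposited values numbered 190816981 in HP1-KD, 77066034 in HP1-rescue, 64749325 in H3K9M and 304154361 in control embryos, and 46744545, 55061667 and 35389253 in S2 dsRNA 1, S2 dsRNA 2 and S2 control. Contacts inside a single bin took 20.9% of these in HP1-KD, 31.4% in HP1-rescue, 22.8% in H3K9M and 24.1% in control embryos, and 35.9%, 36.4% and 33.1% in the S2 maps. A contig had a median of 1081.5 contacts outside itself in HP1-KD and 1430.5 in control embryos, but only 132.5, 168 and 140 in the S2 maps.

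The contigs supplied a larger share of all contact ends in each treated embryo map than in control, although by less on full 10-kb bins. The share was 0.800% (0.799 to 0.800) in HP1-KD, 0.868% (0.867 to 0.870) in HP1-rescue, 0.711% (0.710 to 0.713) in H3K9M and 0.639% (0.638 to 0.640) in control embryos. In S2 cells it was 0.614% (0.612 to 0.615) with dsRNA 1 and 0.629% (0.627 to 0.630) with dsRNA 2, below the 0.861% (0.859 to 0.864) of S2 control. The direction in S2 cells was therefore opposite to that in embryos, with 1 shared control map per source. As log2 ratios to control these were 0.32 (HP1-KD), 0.44 (HP1-rescue) and 0.15 (H3K9M), and on full 10-kb bins only they were 0.089, 0.22 and 0.084.

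Other contigs were the partner class with most contacts over all contigs. Counted once, contacts between contigs numbered 795619 in HP1-KD and 971476 in control embryos, against 447904 and 591482 with pericentromeres. In shares of contig contacts here and below, a contact is counted once for each contig bin it touches. A contact between contigs thus enters at both ends. So counted, the share with another contig was 54.4% in HP1-KD, 57.7% in HP1-rescue, 53.1% in H3K9M and 52.5% in control embryos. In S2 dsRNA 1, dsRNA 2 and control it was 47.9%, 48.4% and 52.4%. This share rested on contigs labelled X, of whose outside contacts 79.0% in HP1-KD and 77.6% in control embryos were with other contigs. Contigs of the chromosome 3 centromere had 35.8% in HP1-KD and 40.8% in control embryos, below their 45.7% and 42.8% with pericentromeres, and those of the chromosome 2 centromere had 17.0% and 19.1%. Over all contigs, pericentromeres took 15.3%, 13.1% and 15.6% in HP1-KD, HP1-rescue and H3K9M embryos, and 16.0% in control. Arm bins, although far more numerous, took 11.2%, 7.70% and 10.5% in the same embryos and 9.62% in control. Chromosome 4 received 1.57%, 1.35% and 1.23%, against 1.41% in control, and chromosome Y received 2.07%, 2.26% and 2.43%, against 2.49%. In S2 cells arm bins took 18.2% with dsRNA 1, 17.9% with dsRNA 2 and 14.4% in control, and chromosome Y under 1% in each. The contacts were spread over many contigs, since 134 contigs in HP1-KD and 136 in control embryos together held 50% of them.

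Per pair of bins, contigs met pericentromeres far more often than arm bins in every map. The deposited contact per pair with pericentromeres was 0.530 in HP1-KD, 0.445 in HP1-rescue, 0.519 in H3K9M and 0.472 in control embryos. With arm bins it was 0.0380, 0.0295 and 0.0368 in HP1-KD, HP1-rescue and H3K9M embryos and 0.0328 in control. The ratio of the 2, called preference here, was 13.9-fold in HP1-KD, 15.1-fold in HP1-rescue, 14.1-fold in H3K9M and 14.4-fold in control embryos. The preference thus differed little between embryo maps. In S2 cells contact with pericentromeres was 0.868 with dsRNA 1, 0.864 with dsRNA 2 and 0.937 in control, contact with arm bins 0.0916, 0.0871 and 0.0853, and the preference 9.47-, 9.93- and 10.99-fold.

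As log2 ratios to control, contact of HP1-KD contigs was higher with both partners by similar amounts, 0.17 with pericentromeres and 0.21 with arm bins, so that preference was lower by only 0.04. H3K9M embryos had 0.14 and 0.16, with a preference difference of -0.03, and HP1-rescue embryos had -0.08 and -0.16, with 0.07. For chromosome 4 the ratios were -0.00 (HP1-KD), -0.21 (HP1-rescue) and 0.11 (H3K9M), and contact with chromosome Y -0.02, -0.05 and -0.02. In S2 cells the preference was 0.22 lower with dsRNA 1 and 0.15 lower with dsRNA 2. Without balancing, on whole contacts, HP1-KD contigs had 0.27 with pericentromeres and 0.55 with arm bins, and their preference was 0.28 lower than in control. On deposited values it was also 0.18 lower with the borders of the study and 0.15 lower without arm bins within 1 Mb of a border, so the distance of the summed HP1-KD preference from control varied with several settings.

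**Figure D1:**
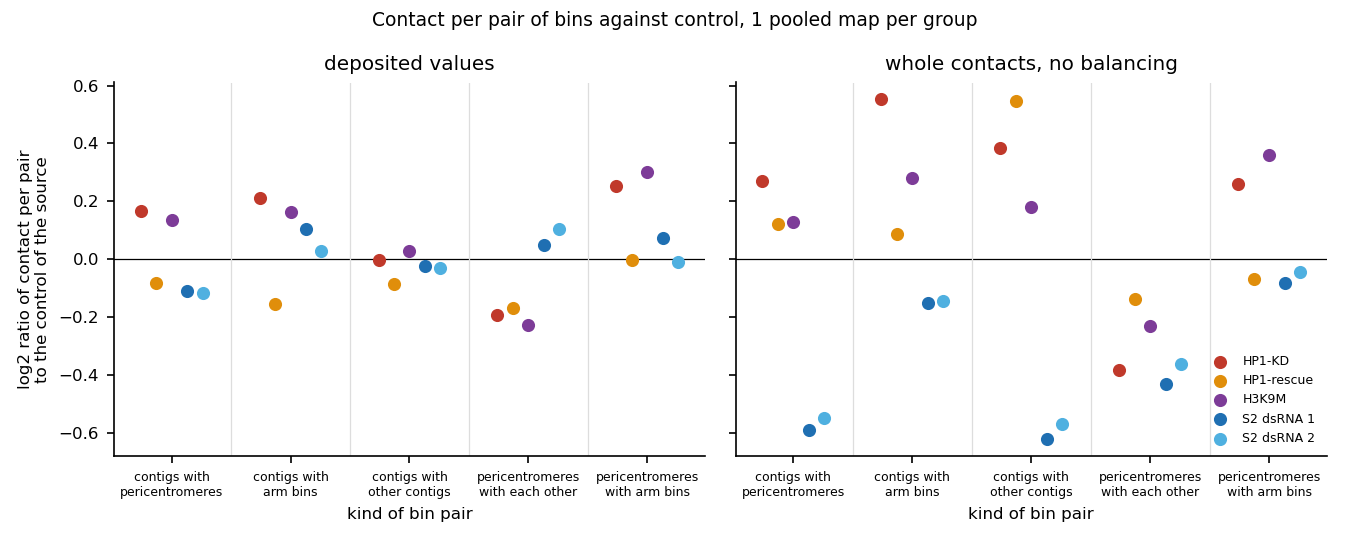
The vertical axis gives the log2 ratio of contact per pair of bins to the control of the source, for 5 kinds of bin pair and 5 maps, from deposited values (left) and from whole contacts without balancing (right), 1 point per pooled map. HP1-KD contigs lie at 0.17 with pericentromeres and 0.21 with arm bins (left), while contact between pericentromeres lies at -0.19.

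The placed pericentromeres differed in another way. Deposited contact between pericentromeres of different chromosomes was lower than in control by 0.19 (HP1-KD), 0.17 (HP1-rescue) and 0.23 (H3K9M) on the log2 scale, where contact of contigs with pericentromeres was 0.17, -0.08 and 0.14. Their contact with arm bins of other chromosomes was 0.25 (HP1-KD), -0.00 (HP1-rescue) and 0.30 (H3K9M). The preference of pericentromeric bins for other pericentromeres was therefore lower by 0.45, 0.17 and 0.53, against contig values of -0.04, 0.07 and -0.03. On whole contacts the pericentromeric preference was -0.64, -0.07 and -0.59, and that of contigs -0.28, 0.04 and -0.15. Both scales placed HP1-KD and H3K9M contigs nearer to control than placed pericentromeres. Contigs include pieces of the same chromosome as their partner and pericentromeric pairs here do not, so the 2 kinds of pair are not the same in makeup.

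The single contigs showed the same mixture. Preference could be computed for 75 contigs with at least 500 contacts with the 2 classes in each embryo map. Its median was 5.01 on the log2 scale in HP1-KD, 5.26 in HP1-rescue, 5.19 in H3K9M and 5.12 in control embryos. It was lower than in control in 54 of 75 contigs of HP1-KD, 31 of HP1-rescue and 46 of H3K9M embryos, with median differences of -0.22, 0.15 and -0.14. Members ranged widely, and in HP1-KD the central 80% of differences ran from -0.63 to 0.74. On whole contacts 44 of the 75 were lower in HP1-KD and 54 in H3K9M.

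**Figure D2:**
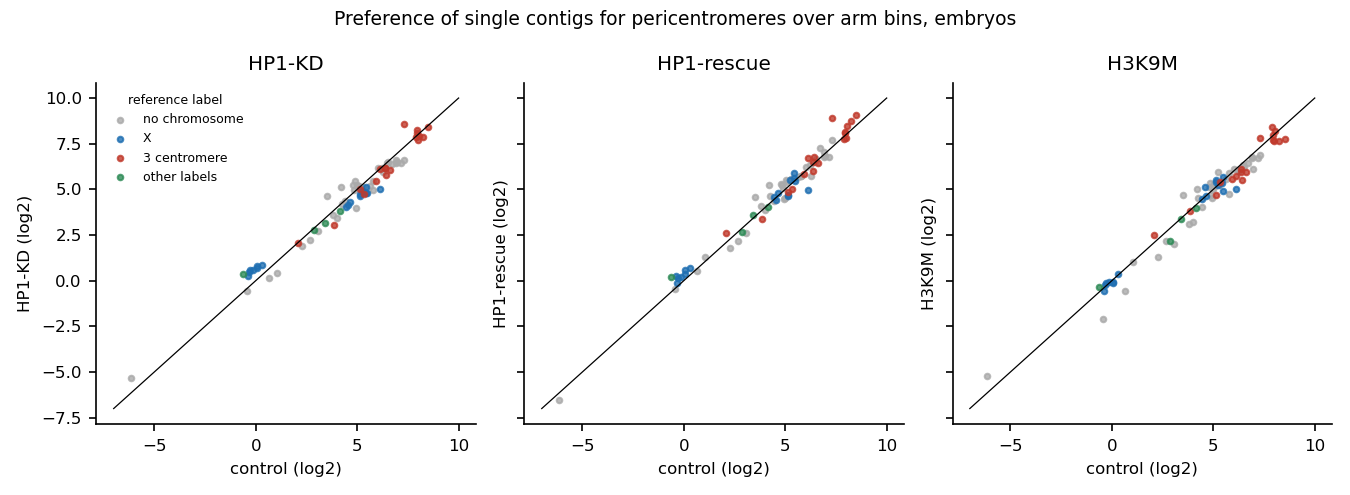
Preference of 75 single contigs for pericentromeres over arm bins (log2 of the ratio of contact per pair) in HP1-KD, HP1-rescue and H3K9M embryos (vertical axes) against control embryos (horizontal axis), coloured by RefSeq label, with the line of equal values. Of the 75 points, 54 lie below the line for HP1-KD, 31 for HP1-rescue and 46 for H3K9M.

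Per bin, the share of contacts outside the own chromosome or contig that fell on pericentromeres of other chromosomes was set against control, counting bins with at least 100 such contacts in both maps. For contig bins every pericentromere counted as other, also that of the chromosome RefSeq gives, while placed bins leave out their own chromosome. In control embryos chromosome 3 centromere contigs had 160461 contacts with their own pericentromeres and 7376 with the others. The classes of bins are thus not alike in makeup. In HP1-KD 52 of 1159 contig bins were over 1.5-fold higher and 64 over 1.5-fold lower, where 30.7% and 3.77% of all bins were. In HP1-rescue 28 and 161 of 1020 contig bins were higher and lower (20.3% and 11.7% of all bins), and in H3K9M 55 and 52 of 978 (32.8% and 7.48%). In S2 dsRNA 1 the counts were 34 and 38 of 645 (9.25% and 16.7% of all bins), and in S2 dsRNA 2 35 and 48 of 654 (8.26% and 16.2%). Contig bins past the higher bound were thus a smaller share than of all bins in each comparison at this minimum of contacts, though not in S2 cells with at least 400 contacts. In HP1-KD 4.49% of contig bins were past it, against 0.638% of pericentromeric bins and 38.8% of arm bins, so a low share was found in both heterochromatic classes. A share has a ceiling, however, and a bin with a high share in control has little or no room to rise 1.5-fold. On the contig chrUn_DS483781v1 pericentromeres took 71.2% of outside contacts in control embryos. The low share of higher calls in these classes is therefore partly built in.

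Contact per pair with the pericentromere of the chromosome that RefSeq gives was above that with the other pericentromeres. Contigs labelled X met the X pericentromere 15.7 times as often per pair as the other pericentromeres in HP1-KD, 18.3 times in HP1-rescue, 15.3 times in H3K9M and 16.6 times in control embryos. Contigs of the chromosome 3 centromere met 3L and 3R 11.2, 13.4 and 12.3 times as often as the others in HP1-KD, HP1-rescue and H3K9M embryos, and 9.96 times in control. The chromosome 2 centromere contigs met 2L 7.42, 10.2 and 9.27 times as often as the others in these embryos, and 6.64 times in control, from 671 contacts with 2L in HP1-KD and 1105 in control. Chromosomes 4 and Y are outside these ratios, as is 2R, which took 5.02% of contig contacts in control embryos. For the counts of single contigs, the partners compared were the pericentromeres of 2L, 3L, 3R and X, chromosome 4 and chromosome Y. A lead of 2R was therefore not counted. These counts use whole contacts per partner bin without balancing, and leads on deposited values were not counted. In control embryos, contact of all contigs per pair with chromosome 4 was 0.0524 on whole contacts, above 2L (0.0424) and 3L (0.0500). On deposited values it was 0.200, below every pericentromere (0.313 to 0.912). For chromosome Y the values were 0.0516 and 1.02, so the place of both among partners depended on balancing. Counted singly, chromosome 4 led 127 X-labelled contigs and pericentromeric X 116 in HP1-KD, and 152 and 119 in control embryos, while chromosome Y led 3 chromosome 2 centromere contigs and pericentromeric 2L 2 in HP1-KD, and 4 and 3 in control. In S2 cells the ratios were 13.6, 11.2 and 13.7 for X contigs, 6.94, 6.31 and 6.58 for chromosome 3 contigs and 3.82, 2.03 and 5.72 for chromosome 2 contigs in dsRNA 1, dsRNA 2 and control. Among contigs with a partner that led the next by at least 2-fold in both maps, that partner was the same in 546 of 547 in HP1-KD and control, 310 of 311 in HP1-rescue and control, and 273 of 273 in H3K9M and control. It was the same in 119 of 119 and 131 of 131 for the S2 knockdowns and S2 control, and in 110 of 110 contigs that had such a lead in all 7 maps. Between control embryos and S2 control it was the same in 145 of 147. Most contigs had too few contacts for a lead in S2 cells, so this covers a minority. No X-labelled contig led by chromosome 4 is among the 110. These 110 include 48 contigs to which RefSeq gives no chromosome, 33 of them led by 3L, 7 by 3R, 5 by X, 2 by chromosome 4 and 1 by 2L. Chromosome Y led none of these 48. In embryos, however, it led more contigs without a chromosome than any other partner, 109 in HP1-KD and 132 in control, where 3L led 47 in each. It led only 2 in S2 control, where 453 such contigs had under 100 contacts with the partners compared.

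The contigs with most contacts show these partners singly. On chrUn_DS483781v1, labelled 3 centromere, pericentromeric 3R took 56.6% of 48758 outside contacts in HP1-KD, 54.6% in HP1-rescue, 53.0% in H3K9M and 53.5% of 79974 in control embryos. The contig chrUn_CP007085v1, which has no chromosome in RefSeq, met the same region in 55.0% of HP1-KD, 52.7% of HP1-rescue, 50.8% of H3K9M and 51.8% of control contacts. Its leading partner was that of the labelled contig. On chrUn_CP007101v1, also without a chromosome, pericentromeric 3L led with 49.2% in HP1-KD, 45.8% in HP1-rescue, 46.5% in H3K9M and 45.0% in control embryos.

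The longest contig, chrUn_CP007081v1 (88768 bases), carries Gpa2, which encodes a glycoprotein hormone subunit, and klhl10, whose product is needed in male germ cells. Pericentromeric 2L was its strongest partner in embryos, with 38.7% in HP1-KD, 34.9% in HP1-rescue, 31.2% in H3K9M and 35.1% in control. Its arm contacts were 23.2%, 18.6% and 24.9% in HP1-KD, HP1-rescue and H3K9M embryos and 17.6% in control. In S2 cells arm bins took 42.1% with dsRNA 1, 38.3% with dsRNA 2 and 36.2% in control, more than in any embryo map.

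The ribosomal DNA contig chrUn_CP007120v1 (76973 bases) holds copies of the 18S, 5.8S, 2S and 28S ribosomal RNA genes, which in Drosophila lie in the heterochromatin of X and on Y. Pericentromeric X took 19.3% of its contacts in HP1-KD, 21.51% in HP1-rescue, 22.3% in H3K9M and 21.96% in control embryos. Arm bins took 26.1% in HP1-KD and 24.0% in H3K9M, above 18.4% in HP1-rescue and 18.8% in control. Its preference was below control by 0.36 (HP1-KD), 0.11 (HP1-rescue) and 0.17 (H3K9M) on the log2 scale. The only other contig with a gene named beyond a number, chrX_DS483995v1_random with the Stellate copy SteXh:CG42398, had 33 outside contacts in HP1-KD and 61 in control embryos, too few to compare.

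Other contigs had a leading partner outside the pericentromeres. On chrX_DS484187v1_random the arm of X took 48.4% of contacts in HP1-KD, 49.6% in HP1-rescue, 52.5% in H3K9M and 45.1% in control embryos, and on chrX_DS483818v1_random 36.4%, 28.4%, 32.2% and, in control, 32.6%. The contig chrUn_DS485102v1, without a chromosome, met chromosome 4 in 40.7% of contacts in HP1-KD, 40.4% in HP1-rescue, 35.9% in H3K9M and 33.3% in control embryos, and in 34.9%, 36.0% and 34.5% in the S2 maps. It alone supplied 12.7% of all contig contacts with chromosome 4 in HP1-KD and 15.8% in control embryos. The contig chrX_CP007103v1_random, in contrast, led on the pericentromere and had 13.7% of contacts on pericentromeric X in HP1-KD, 11.5% in HP1-rescue, 15.4% in H3K9M and 12.4% in control embryos.

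Among the 75 contigs, those with the highest HP1-KD ratio of preference were chrUn_DS483783v1 (1.28 above control), chrUn_CP007098v1 (1.16) and chrUn_DS483872v1 (1.00). HP1-rescue embryos also stood above control there, by 1.57, 1.11 and 0.84. These contigs and the lowest ones below were picked by their HP1-KD ratio, and the same control map enters every embryo ratio. A shared direction in the other treated embryo maps is therefore partly built in. On whole contacts the first had 0.08 and the next -0.32 in HP1-KD, so their position rested on the balanced values, while chrUn_DS483872v1 kept 0.93. The lowest were chrX_DS483789v1_random (-1.12), chrUn_DS483999v1 (-0.97) and chrUn_DS483680v1 (-0.81), with -0.86, -0.81 and -0.47 on whole contacts. HP1-rescue embryos had -1.18, -0.49 and -0.06 on deposited values and H3K9M embryos -1.11, -0.42 and -1.00. The first contig was thus below control by a similar amount in each treated embryo map, and the last was near control in HP1-rescue.

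On whole contacts, the 359-bp contigs labelled X met chromosome 4 more often, per bin, than any pericentromere in the embryos. Per 1000000 outside contacts and per bin, chromosome 4 received 77.1 in HP1-KD, 59.4 in HP1-rescue, 84.8 in H3K9M and 98.4 in control embryos, while pericentromeric 3L received 30.7, 23.01, 33.6 and, in control, 31.5. Among the outside contacts of this family, the chromosome 4 value was lower in each treated embryo map than in control. On deposited values the contact per pair with chromosome 4 was likewise 0.151 (HP1-KD), 0.128 (HP1-rescue) and 0.165 (H3K9M), below 0.178 in control embryos. Per 1000000 whole contacts of the entire map, however, contacts of the family with all of chromosome 4 numbered 51.9 (HP1-KD), 41.3 (HP1-rescue) and 47.6 (H3K9M), against 42.4 in control embryos, so the order depended on what the contacts were set against. The bins from 1.2 Mb on, 8.40% of the chromosome, took 10.9% of its contacts with the family in HP1-KD embryos, with 10.2% in HP1-rescue, 5.55% in H3K9M and 4.65% in control. Pericentromeric X, which is placed on the same chromosome, received only 11.5 in HP1-KD, 6.84 in HP1-rescue, 11.002 in H3K9M and 8.51 in control embryos. In S2 cells chromosome 4 received 30.8 with dsRNA 1, 24.6 with dsRNA 2 and 19.9 in control, and so did not stand above pericentromeric 3L at 34.9, 33.0 and 31.2. Chromosome 4 led the partners of 127 X-labelled contigs in HP1-KD, 25 in HP1-rescue, 18 in H3K9M and 152 in control embryos, and of 0 in S2 control. Of the 436, contigs with under 100 contacts with the partners compared numbered 166 in HP1-KD, 318 in HP1-rescue, 340 in H3K9M, 155 in control embryos and 395 in S2 control, so these counts cannot be compared between maps.

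**Figure D3:**
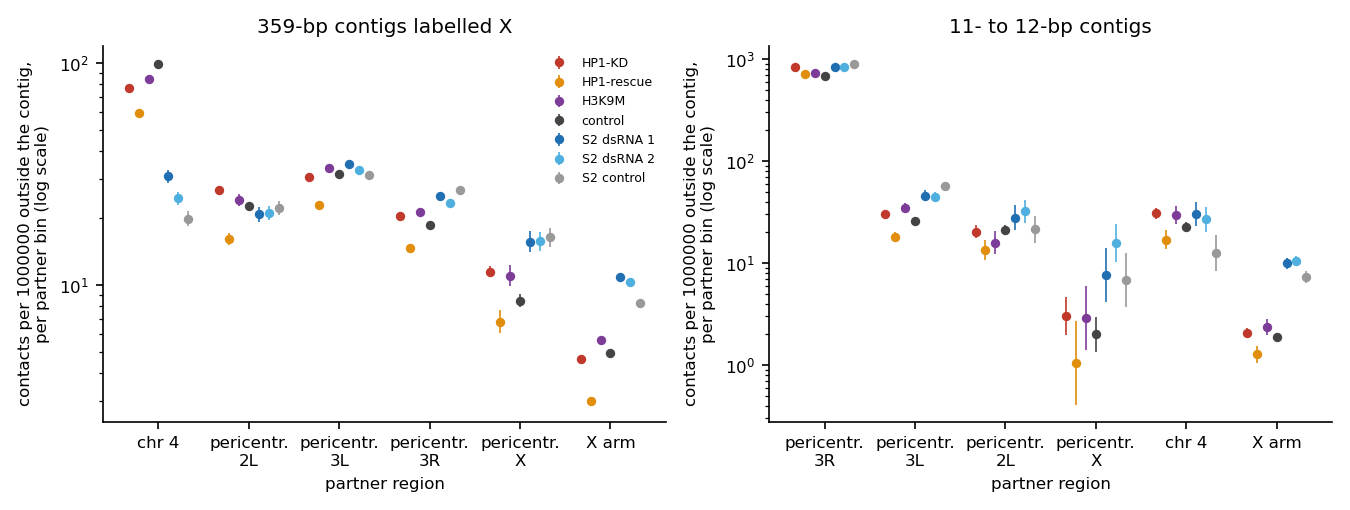
Whole contacts per 1000000 outside the contig and per partner bin (log scale), with 95% intervals for counting error, for 359-bp contigs labelled X (left) and 11- to 12-bp contigs (right), by partner region and map. Left, chromosome 4 stands at 77.1 in HP1-KD and 98.4 in control embryos but at 19.9 in S2 control, and right, pericentromeric 3R stands above every other partner in all 7 maps.

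On pericentromeric 3L, contacts of the 359-bp contigs formed 2 peaks. The 3 windows of 250 kb with most such contacts in control embryos (24500001 to 24750000, 26750001 to 27000000 and 27000001 to 27250000 on 3L) hold 12.9% of its bins. They took 41.7% of the contacts in HP1-KD, 51.4% in HP1-rescue, 54.8% in H3K9M and 61.2% in control embryos, and 45.9%, 49.3% and 44.9% in S2 dsRNA 1, dsRNA 2 and control. As the windows were chosen in the control map, a lower value elsewhere is partly built in. In the same bins a mean of 4.64% of sequence words recurred within the bin at distances near 359 bases, against 0.0196% in the rest of pericentromeric 3L. The bins were not compared with the sequences of the contigs. The contig chrUn_DS484751v1 of this family, without a chromosome, met 3L in 43.3% of contacts in HP1-KD, 32.0% in HP1-rescue, 38.1% in H3K9M and 35.5% in control embryos.

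The 11- to 12-bp contigs met 1 place above all, the start of the 3R sequence next to the centromere. Of these 73 contigs, 30 hold no GATC, and their part in the values below was not tested. Pericentromeric 3R received 832 contacts per 1000000 and bin in HP1-KD, 705 in HP1-rescue, 720 in H3K9M and 678 in control embryos, while pericentromeric 3L received 30.5, 17.9, 34.7 and, in control, 25.6. The first 500 kb, 12.05% of its bins, took 66.9% (66.3 to 67.5) of 23100 contacts in HP1-KD, 83.0% (82.2 to 83.7) in HP1-rescue, 80.4% (79.4 to 81.3) in H3K9M and 88.0% (87.6 to 88.3) of 32444 in control embryos. Contacts of this family thus reached further along 3R in HP1-KD than in the other embryo maps. S2 cells had 62.9%, 62.0% and 62.3% with dsRNA 1, dsRNA 2 and control, close to each other and below control embryos. On deposited values the gap was smaller, with 82.5% in HP1-KD, 90.5% in HP1-rescue, 88.3% in H3K9M and 91.4% in control embryos.

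The motif printed above marks that place. It occurred in 31 of the 50 used bins of the first 500 kb and in 4 of the other 365 of pericentromeric 3R. The 35 bins with the motif took 59.5% of the 3R contacts of the 11- to 12-bp contigs in HP1-KD, 80.1% in HP1-rescue, 71.5% in H3K9M and 81.3% in control embryos, and 56.2%, 52.9% and 53.7% in the S2 maps. On bins without it, 24.2% of the remaining contacts in HP1-KD and 45.2% in control embryos still lay in the first 500 kb. Chromosome 3 centromere contigs outside the family placed 25.7% of their 3R contacts there in HP1-KD, 34.9% in HP1-rescue, 33.1% in H3K9M and 32.2% in control embryos. The part of read placement among copies in these shares was not tested.

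**Figure D4:**
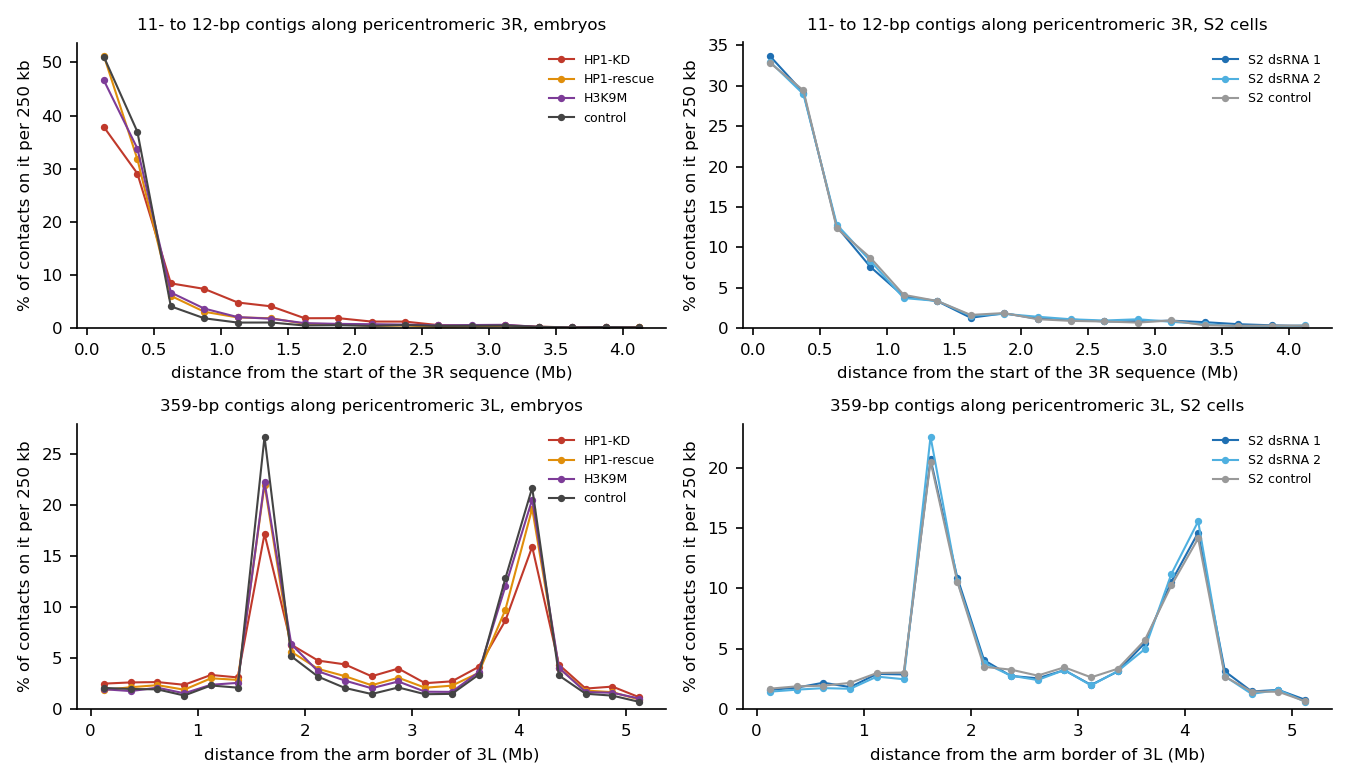
Percent of whole contacts per 250-kb window along pericentromeric 3R for 11- to 12-bp contigs (top) and along pericentromeric 3L for 359-bp contigs (bottom), in embryos (left) and S2 cells (right), 1 line per pooled map. The windows of the first 500 kb of 3R together hold 66.9% in HP1-KD and 88.0% in control embryos, and the 2 peaks on 3L are lower in HP1-KD than in control embryos.

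The 15 contigs with a 5-bp period met chromosome Y most, at 437 contacts per 1000000 and bin in HP1-KD, 365 in HP1-rescue, 389 in H3K9M and 456 in control embryos, and at 678, 684 and 633 in S2 dsRNA 1, dsRNA 2 and control. Chromosome 4 came next in embryos with 246, 120 and 304 in HP1-KD, HP1-rescue and H3K9M, and 214 in control. Short AT-rich repeats of this kind are common on Y and 4 in Drosophila. Their contacts were few, 10303 outside contacts in HP1-KD and 12213 in control embryos. In S2 dsRNA 1, dsRNA 2 and control, all contigs together had only 2656, 2916 and 2822 contacts with chromosome Y. The S2 rates of this family on Y thus rest on few contacts.

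On the arms, HP1-KD embryos had more contact with contigs than control embryos in 81 of 96 windows of 1 Mb (median log2 ratio 0.31). It was higher in 23 windows in HP1-rescue (median -0.23), 77 in H3K9M (0.29), 57 in S2 dsRNA 1 (0.13) and 51 in S2 dsRNA 2 (0.03). On whole contacts it was higher in 95 windows in HP1-KD (median 0.52), 45 in HP1-rescue (-0.0084), 91 in H3K9M (0.50), 16 in S2 dsRNA 1 (-0.085) and 14 in S2 dsRNA 2 (-0.091), so the S2 majority turned to the other side without balancing. By distance from the pericentromeric border, HP1-KD was 0.07 below control in the first 1 Mb, where contact was highest (0.241 per pair in HP1-KD, 0.252 in control), and 0.74 above it from 1 to 2 Mb (0.0686 per pair in HP1-KD, 0.0411 in control). On whole contacts the HP1-KD ratios in these bands were 0.18 and 1.04, so the first was above control without balancing. The first band rested on X, which held 69862 of its 102060 contacts in control embryos. By arm, HP1-KD had 0.43 on 2L, 0.31 on 3L, 0.05 on 3R and -0.16 on X in the first 1 Mb, so the pooled value below control came from X alone. From 1 to 2 Mb it had 0.27 on 2L, 0.61 on 3L, 0.25 on 3R and 1.46 on X, higher than in the first band on 3L, 3R and X but not on 2L. The part of the reported 2L inversion in the 2L values of HP1-KD and HP1-rescue embryos was not tested. H3K9M embryos had -0.10 and 0.42 in the same bands, HP1-rescue -0.18 and -0.06. Contacts of contigs with the mitochondrial genome, which lies outside the nucleus, were 0.251% of contig contacts in HP1-KD, 0.253% in HP1-rescue, 0.386% in H3K9M and 0.292% in control embryos, and 0.275%, 0.350% and 0.144% in the S2 maps. Their part in the arm values was not tested.

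**Figure D5:**
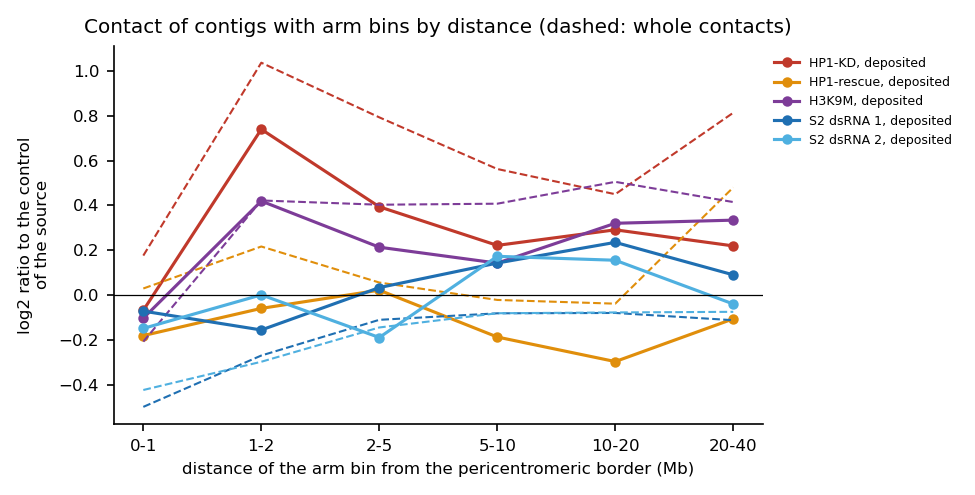
Log2 ratio of contact between contigs and arm bins to the control of the source (vertical axis) by distance of the arm bin from the pericentromeric border in Mb (horizontal axis), for 5 maps, from deposited values (solid) and whole contacts (dashed). In HP1-KD the deposited ratio is -0.07 in the first 1 Mb, where X alone is below control, and 0.74 from 1 to 2 Mb. With the borders of the study, the X part of the first 1 Mb counts as pericentromeric.

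The 2 arm windows with the highest HP1-KD ratio both lay on X. In the window 20000001 to 21000000 of X contact with contigs was 0.0802 per pair in HP1-KD, 0.0520 in HP1-rescue, 0.0655 in H3K9M and 0.0268 in control embryos, log2 ratios of 1.58, 0.96 and 1.29. It was 0.130 with S2 dsRNA 1, 0.122 with dsRNA 2 and 0.132 in S2 control. In the window 1000001 to 2000000 of X, at the other end of the arm, it was 0.0341 in HP1-KD, 0.0161 in HP1-rescue, 0.0280 in H3K9M and 0.0163 in control embryos, log2 ratios of 1.07, -0.02 and 0.79. The windows with the lowest ratio were 28000001 to 29000000 of 3R at -0.44 and 25000001 to 26000000 of 3R at -0.24. On whole contacts these ratios were 0.67 and 0.39. The windows too were picked by their HP1-KD ratio to the shared control, so a shared direction in the other treated embryo maps is partly built in.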

How the data were processed

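The authors pooled the Hi-C libraries of each group and deposited 7 maps, whose values are a signal, the contact per pair of 10-kb bins after iterative correction (ICE), with a bin table of positions. The values of each map sum to 50000000. HiC-Pro 2.11.1 and dm6 are named in the submitters' processing notes, and read filters are not given in the sources used here. From its name it is unclear whether the HP1-KD map pools every library of its group, and the S2 control map was assigned by its name.

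Whole contacts were recovered as value divided by 1 factor per bin, and 99.9998% or more of values under 20 contacts came out whole within 0.02. The recovery and the contact measures were also tested on simulated data. A contig was put in a repeat family where at least 30% of its words recurred at about that distance. Contact per pair is the sum of deposited values over all pairs of bins divided by their number, and log2 ratios are to the control of the source. Intervals are 95% Wilson intervals.

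The contigs, groups and lists were chosen with earlier results of these data known. Named were the 10 contigs with most outside contacts in control embryos, the 3 highest and 3 lowest HP1-KD ratios of preference, the 2 highest and 2 lowest arm windows of at least 1000 control contacts, and contigs with a named gene. Repeat families, their windows and the motif were chosen after the values were seen. Alternatives were no balancing, equal depth, scaling to contacts between chromosomes, other borders, 2R added, and other choices of contigs. Sequences came from RefSeq's dm6 assembly (Release 6). Scripts ran under Python 3.11.15 with matplotlib 3.10.9, pandas 2.3.3, statsmodels 0.14.6, scipy 1.17.1 and numpy 2.4.6.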

Additional observations from a re-analysis of the deposited data

Results flagged for a closer look

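In 7 measures HP1-KD embryos and both S2 knockdowns lay on opposite sides of their own controls, each with 1 pooled map, and the difference was not tested. Both S2 knockdowns were set against the same S2 control map, which had the fewest whole contacts of all maps (35389253). Their shared direction is therefore not 2 separate results. Deposited contact of contigs with pericentromeres had log2 ratios to control of 0.17 (HP1-KD), -0.11 (S2 dsRNA 1) and -0.12 (S2 dsRNA 2). On whole contacts the same measure was 0.27, -0.59 and -0.55. Contact with arm bins was 0.55 in HP1-KD, -0.15 in dsRNA 1 and -0.14 in dsRNA 2 on whole contacts, where deposited values were above control in all of them. Contact with chromosome 4 was 0.48, -0.069 and -0.15, contact with chromosome Y 0.066, -0.49 and -0.59, and contact between contigs 0.38, -0.62 and -0.57, all on whole contacts. On deposited values these were -0.0025, -0.062 and -0.12 for chromosome 4, -0.023, -0.024 and 0.14 for chromosome Y, and -0.0025, -0.023 and -0.031 between contigs, so the maps did not then lie on opposite sides in this way. The share of contact ends on contigs was 0.32 in HP1-KD, -0.49 in dsRNA 1 and -0.45 in dsRNA 2. The whole-contact measures share these contact ends, so they are not separate results.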

How the results depend on the processing

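No paired analysis was possible because each group is 1 pooled map and no test was made. Values are log2 ratios to the control of the source, and the cause of a move was not tested. Without balancing, HP1-KD had 0.27 with pericentromeres, 0.55 with arm bins, 0.48 with chromosome 4 and a preference of -0.28. HP1-rescue turned to 0.12, 0.087 and 0.34 with pericentromeres, arm bins and chromosome 4. S2 dsRNA 1 had -0.59, -0.15 and a preference of -0.44, and dsRNA 2 -0.55, -0.14 and -0.41, with -0.59 for chromosome Y. At equal depth without balancing, the same values were 0.28, 0.55, 0.46 and -0.28 in HP1-KD, 0.13, 0.090 and 0.32 in HP1-rescue, -0.59, -0.15 and -0.44 in dsRNA 1, and -0.55, -0.14, -0.40 and -0.59 in dsRNA 2. Scaled to contacts between chromosomes, HP1-rescue turned to 0.10 with pericentromeres and 0.027 with arm bins, and HP1-KD had 0.19 with pericentromeres. With the study's borders, HP1-KD had 0.13 with pericentromeres, 0.31 with arm bins and a preference of -0.18, and H3K9M a preference of -0.18. Adding 2R gave 0.13 for HP1-KD with pericentromeres. With contigs of 10 kb or more, that value was 0.14, H3K9M had 0.053 with pericentromeres and 0.67 with chromosome 4, and dsRNA 2 turned to -0.025 with arm bins.

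Chosen after the data were seen were 3 alternatives. Without arm bins within 1 Mb of a border, HP1-KD had 0.32 with arm bins and a preference of -0.15. Without the 359-bp contigs it had 0.13 with pericentromeres. With contigs of at least 500 contacts it had 0.28, the preference became -0.050 in dsRNA 1 and -0.029 in dsRNA 2, and dsRNA 2 turned to 0.00417 with pericentromeres. Over these, the preference in HP1-KD ranged from -0.28 to 0.05, and in H3K9M and both S2 knockdowns it stayed below 0. Contact of HP1-KD and H3K9M with pericentromeres and arm bins stayed above 0.

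On full 10-kb bins only, the ratio of the share of ends on contigs was 0.089 in HP1-KD, 0.22 in HP1-rescue, 0.084 in H3K9M, -0.40 in dsRNA 1 and -0.39 in dsRNA 2. With at least 400 contacts, 27 of 872 contig bins were called lower in HP1-KD (3.06% of all bins). Higher and lower calls were 9 and 105 of 647 in HP1-rescue (17.7% and 9.65% of all bins), 26 and 15 of 573 in H3K9M (33.3% and 5.12%), 14 and 10 of 383 in dsRNA 1 (2.98% and 7.39%), and 17 and 24 of 394 in dsRNA 2 (3.07% and 8.12%), so higher calls in S2 cells were then no smaller a share of contig bins (3.66% and 4.31%) than of all bins. At 2-fold, they were 9 and 21 of 1159 in HP1-KD (9.10% and 1.07% of all bins), 9 and 45 of 1020 in HP1-rescue (7.52% and 6.17%), 10 and 17 of 978 in H3K9M (14.01% and 3.47%), 12 and 14 of 645 in dsRNA 1 (3.61% and 5.65%), and 12 and 15 of 654 in dsRNA 2 (3.42% and 4.86%). Contigs shorter than a bin, with a median of 132.5 to 168 outside contacts in the S2 maps, limit what single contigs can show there.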
